A study of Capra hircus with 20 samples.

Results

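Voltage-gated sodium channels carry the inward sodium current that starts the action potential in neurons. Each channel is formed by 1 pore-forming alpha subunit, which senses voltage and conducts sodium, together with smaller beta subunits that change its gating and help to place it in the membrane. In the rodent brain, SCN3A is known as the alpha subunit gene of the embryonic and early postnatal period, SCN2A is found on unmyelinated and young axons, and SCN8A is the main alpha subunit gene of mature axon initial segments and nodes of Ranvier. The list of channel subunit genes examined here named 8 genes, of which 7 were matched by symbol among the 21071 genes of the deposited table. They are the alpha subunit genes SCN2A, SCN3A, SCN8A and SCN9A and the beta subunit genes SCN2B, SCN3B and SCN4B. SCN1A was not matched by its symbol and was not analysed here, which leaves its level unknown. The genes were named as a family and no measured value enters the rule, but they were chosen with earlier results of these data known.

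Hypothalamic tissue was collected from 20 female Jining grey goats, with 5 goats at 1 day of age (D1) and 5 each at 2 months (M2), 4 months (M4) and 6 months (M6). The goats shared breed, sex, farm and feeding, and no treatment was given. Each goat gave 1 strand-specific library depleted of rRNA, and the values are FPKM, the sequenced fragments of a gene scaled by the length of its exons and by the size of the library. Because the length is divided out, levels of different genes are set side by side here. The study kept only reads mapped to 1 place, and whether related genes lost unlike shares of reads by this was not tested. FPKM also does not keep the read number behind a value, and the depth of each value is unknown. In a bulk tissue, fewer neurons and less RNA per neuron cannot be told apart.

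Several libraries stood apart from the others. M6 replicate 3 had the lowest summed FPKM of the 9 neuron markers, 126, against 416 to 2632 in the other libraries, and all 9 markers were above 0 in every library. In M2 replicate 3, 1 gene outside the members, KLHDC1, held 23.9% of the summed FPKM, and it held 9.83% in M6 replicate 3. The summed FPKM of the 6 striatum markers was 719 in D1 replicate 4, 185 in M2 replicate 4 and 354 in M6 replicate 2, and at most 19.3 in the other 17 libraries, with DRD2 at 0 in part of the libraries. The 5 cortex markers summed to 73.3 in M4 replicate 1 and to between 0.566 and 26.9 elsewhere, and 4 of them were at 0 in part of the libraries. The labelled tissue was checked with 10 hypothalamus markers, whose summed FPKM ran from 1.32 to 913. No hypothalamus marker reached 1 FPKM in M4 replicate 1 and M4 replicate 3, and 8 of 10 did in D1 replicate 1 and M6 replicate 4. M4 replicate 1, the library high in cortex markers, also had the highest SCN2A, SCN8A and SCN3B levels of the 20 libraries. The part of the tissue piece in the differences between stages was not tested. Of the hypothalamus markers, GHRH was listed at 0 in 19 libraries, AGRP in 13, OXT and HCRT in 6 each and NKX2-1 in 4. PMCH was at 0 in 3 libraries, SIM1 and TRH in 1 each, and AVP and POMC in 0.

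SCN3A and SCN2A lie side by side on chromosome 2 of the goat assembly ARS1.2, and SCN9A lies further along the same chromosome. SCN3A spans positions 105085269 to 105202394 and SCN2A spans 105247010 to 105392994, with 44615 bp between them. SCN9A spans 106196572 to 106357997. SCN8A is on chromosome 5 at 27738619 to 27939182. These 3 beta subunit genes are all on chromosome 15, where SCN2B (53463959 to 53482952) and SCN4B (53493100 to 53514073) are 10147 bp apart and SCN3B lies at 48073867 to 48100667. All 7 are annotated as protein-coding genes, and the deposited values are per gene, so isoforms of these genes could not be compared.

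All 7 members were above 0 in all 20 libraries and passed the filter on low values. By mean FPKM over the 20 libraries, the order was SCN2A (24.5), SCN3A (19.2), SCN3B (12.4), SCN2B (12.1), SCN8A (9.38), SCN4B (5.38) and SCN9A (2.43). No pair of neighbours in this order differed by more than the spread between libraries. SCN2A was above SCN3A in 13 of 20 libraries, with a mean log2 ratio of 0.25 ± 0.60 (SD), and SCN3B was above SCN2B in 9 of 20. SCN8A was above SCN4B in 17 of 20 libraries, with a mean log2 ratio of 1.55 ± 1.56 (SD).

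SCN3A encodes the alpha subunit Nav1.3. At D1 its values were 32.0, 19.1, 11.6, 42.5 and 10.4 FPKM in replicates 1 to 5. At M2 they were 17.5, 19.0, 5.49, 40.5 and 18.0 FPKM, and at M4 28.7, 19.6, 8.34, 13.2 and 14.8 FPKM. At M6 they were 7.36, 17.9, 3.14, 41.4 and 13.2 FPKM. Within a stage the highest library was between 3.44 times (M4) and 13.2 times (M6) the lowest, and the stages overlapped. The mean was 23.1 ± 13.8 FPKM at D1 and 16.6 ± 14.9 FPKM at M6 (SD, n = 5 each). Between the later stages and D1 the log2 fold change was -0.45 (SE 0.476, 95% interval -1.44 to 0.54, limma adjusted p = 0.737), and without D1 replicate 4 it was -0.18.

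SCN8A encodes Nav1.6. Its values at D1 were 8.72, 9.89, 13.0, 10.6 and 5.62 FPKM. At M2 they were 11.2, 7.32, 8.60, 10.3 and 10.9 FPKM, and at M4 18.1, 13.6, 8.29, 7.98 and 7.74 FPKM. At M6 they were 8.75, 11.5, 1.58, 7.05 and 6.92 FPKM. The values of 18 libraries lay between 5.62 and 13.6 FPKM, with M4 replicate 1 above this range and M6 replicate 3 below it. The mean was 9.57 ± 2.72 FPKM at D1, 9.65 ± 1.64 at M2, then 11.2 ± 4.60 for M4 and 7.16 ± 3.62 at M6 (SD, n = 5 each). The log2 fold change of the later stages from D1 was -0.13 (SE 0.318, 95% interval -0.79 to 0.54, limma adjusted p = 0.903), and without M6 replicate 3 it was 0.03.

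A shift from SCN3A towards SCN8A over the stages was named along with these genes, so their ratio is given as a description with no test. In the fits of the single genes, neither SCN3A nor SCN8A was called in any comparison, but such fits do not test the ratio. The mean log2 ratio of SCN3A to SCN8A, with 0.1 FPKM added to both, was 1.10 ± 0.87 at D1, 0.81 ± 0.97 at M2, then 0.57 ± 0.34 for M4 and 0.96 ± 1.01 at M6 (SD, n = 5 each). The D1 libraries ran from -0.16 to 2.00 and the M6 libraries from -0.25 to 2.54, so the M6 range enclosed the D1 range. The mean of the 15 later libraries was 0.33 below that of D1 (-0.33), within the SD of each of the 4 stages. Leaving out 1 library moved it between -0.64, without D1 replicate 3, and -0.10, without D1 replicate 4. By this mean, SCN3A was above SCN8A at all 4 stages.

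**Figure D1:**
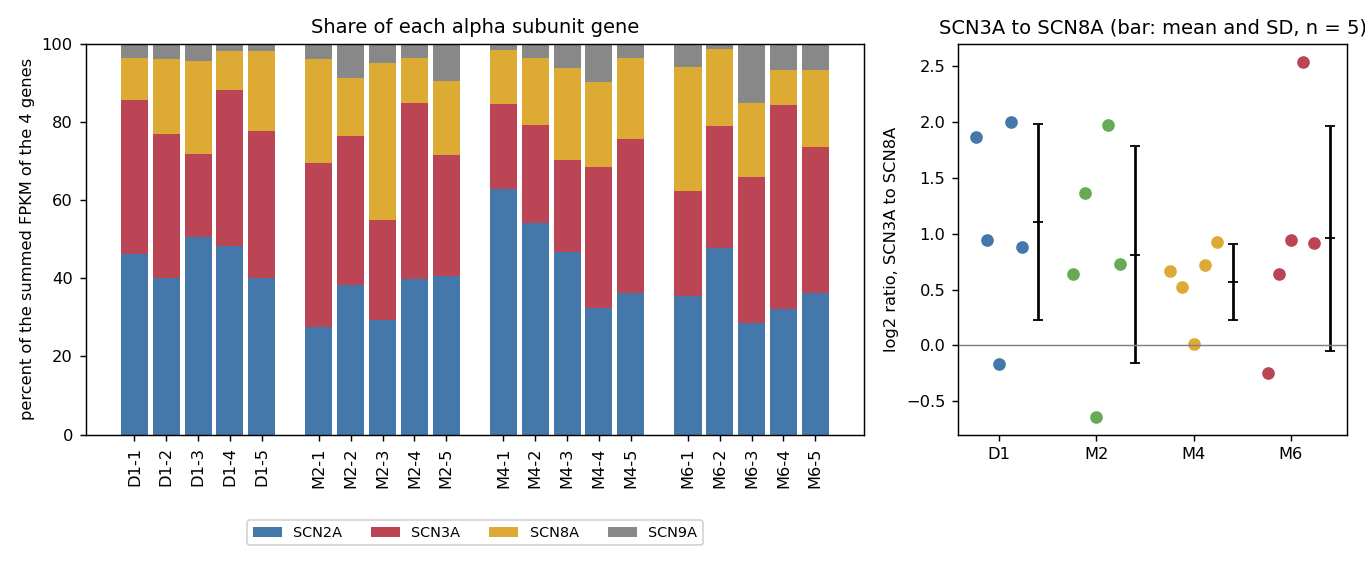
Left, stacked bars give the percent of the summed FPKM of SCN2A, SCN3A, SCN8A and SCN9A that each gene held in each library, named by stage and replicate. Right, points give the log2 ratio of SCN3A to SCN8A by library with the mean and SD of 5 libraries beside them; the stages overlap, and the lowest value, -0.64, is an M2 library.

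As a share of the summed FPKM of the 4 alpha subunit genes, SCN3A held 35.0% ± 7.80 in the D1 libraries, 36.4% ± 7.96 at M2, then 29.2% ± 8.04 for M4 and 37.0% ± 9.62 at M6 (SD, n = 5 each). The share of SCN8A was 16.8% ± 6.14 at D1, 22.4% ± 11.5 at M2, then 19.4% ± 3.87 for M4 and 19.9% ± 8.13 at M6. The share of SCN2A was 45.1% ± 4.80 at D1, 35.1% ± 6.13 at M2, then 46.5% ± 12.6 for M4 and 36.0% ± 7.25 at M6, and the highest, 62.9%, was in M4 replicate 1. SCN9A, the Nav1.7 gene known from sensory neurons and also present in the hypothalamus, held 3.10% ± 1.19 at D1, 6.13% ± 2.83 at M2, then 4.93% ± 3.17 for M4 and 7.11% ± 4.99 at M6. The sum itself was 64.3 ± 30.2 FPKM at D1, 52.1 ± 25.01 at M2, then 63.9 ± 42.1 for M4 and 41.6 ± 27.5 at M6. SCN1A is not part of this sum, so the shares are those among these 4 genes alone and would be lower with a further alpha subunit gene counted.

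SCN2A encodes Nav1.2. Its values were 37.5, 20.6, 27.7, 51.4 and 11.1 FPKM at D1 and 11.5, 19.1, 6.31, 35.7 and 23.4 FPKM at M2. They were 82.9, 42.7, 16.6, 11.8 and 13.5 FPKM at M4 and 9.76, 27.5, 2.38, 25.5 and 12.7 FPKM at M6. M4 replicate 1 was 34.9 times as high as M6 replicate 3. The log2 fold change of the later stages from D1 was -0.64 (SE 0.523, 95% interval -1.73 to 0.45, limma adjusted p = 0.655). For SCN9A, which ran from 0.519 to 2.99 FPKM at D1 and from 0.681 to 5.52 FPKM in the later libraries, it was 0.35 (SE 0.428, 95% interval -0.54 to 1.25, limma adjusted p = 0.777).

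SCN3B, a beta subunit gene, had, among the 7 members, the largest share of its variation between stages, 38.7% of the sum of squares, against 8.12% for SCN3A, 20.9% for SCN8A and a median of 18.2% over all genes tested. Its values were 13.3, 19.6, 7.67, 13.2 and 12.1 FPKM at D1 and 5.63, 23.3, 9.19, 21.8 and 8.13 FPKM at M2. They were 38.2, 21.6, 6.23, 13.6 and 8.18 FPKM at M4 and 7.28, 4.60, 1.41, 6.89 and 6.94 FPKM at M6. The highest M6 library, at 7.28 FPKM, was below the lowest D1 library, at 7.67 FPKM, and the M6 libraries overlapped those of M2 and M4. The log2 fold change was -1.41 in M6 vs. D1 (SE 0.507, limma adjusted p = 0.571), -1.57 in M6 vs. M4 (adjusted p = 0.700) and -1.29 in M6 vs. M2 (adjusted p = 0.746). None of the 3 passed the threshold. Without M6 replicate 3, the value in M6 vs. D1 was -0.99 (limma adjusted p = 0.994). Relative to the neuron markers of the same library it was -0.55 (adjusted p = 0.397), and with the mapping rate of each library as a covariate it was -0.53.

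SCN2B encodes a beta subunit that is joined to the alpha subunit by a disulfide bond. Its level ran from 7.88 to 17.8 FPKM at D1, from 3.34 to 15.5 at M2, then from 10.4 to 22.8 for M4 and from 1.79 to 14.1 at M6. The log2 fold change of the later stages from D1 was -0.30 (SE 0.399, 95% interval -1.13 to 0.53, limma adjusted p = 0.802). The mean log2 ratio of SCN3B to SCN2B was 0.03 ± 0.73 at D1, 0.27 ± 0.62 at M2, then -0.0039 ± 0.59 for M4 and -0.64 ± 0.53 at M6 (SD, n = 5 each), and these ranges overlapped.

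SCN4B, a beta subunit known for resurgent sodium current and for its high level in the striatum and in Purkinje cells, varied most among the members. Its values were 2.00, 4.72, 13.3, 16.7 and 3.03 FPKM at D1 and 0.208, 1.51, 5.29, 4.33 and 3.42 FPKM at M2. They were 4.73, 5.65, 3.47, 1.97 and 3.89 FPKM at M4 and 4.49, 26.1, 0.293, 0.293 and 2.18 FPKM at M6. The 2 highest libraries, M6 replicate 2 and D1 replicate 4, were also those with the most FPKM in the striatum markers, but D1 replicate 3, with 13.3 FPKM of SCN4B, had 6.59 FPKM in that list. The log2 fold change of the later stages from D1 was -1.20 (SE 0.786, 95% interval -2.83 to 0.44, limma adjusted p = 0.563). Without D1 replicate 4, M2 replicate 4, M4 replicate 1 and M6 replicate 2, the 4 libraries high in striatum or cortex markers, it was -1.24 (adjusted p = 0.499).

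**Figure D2:**
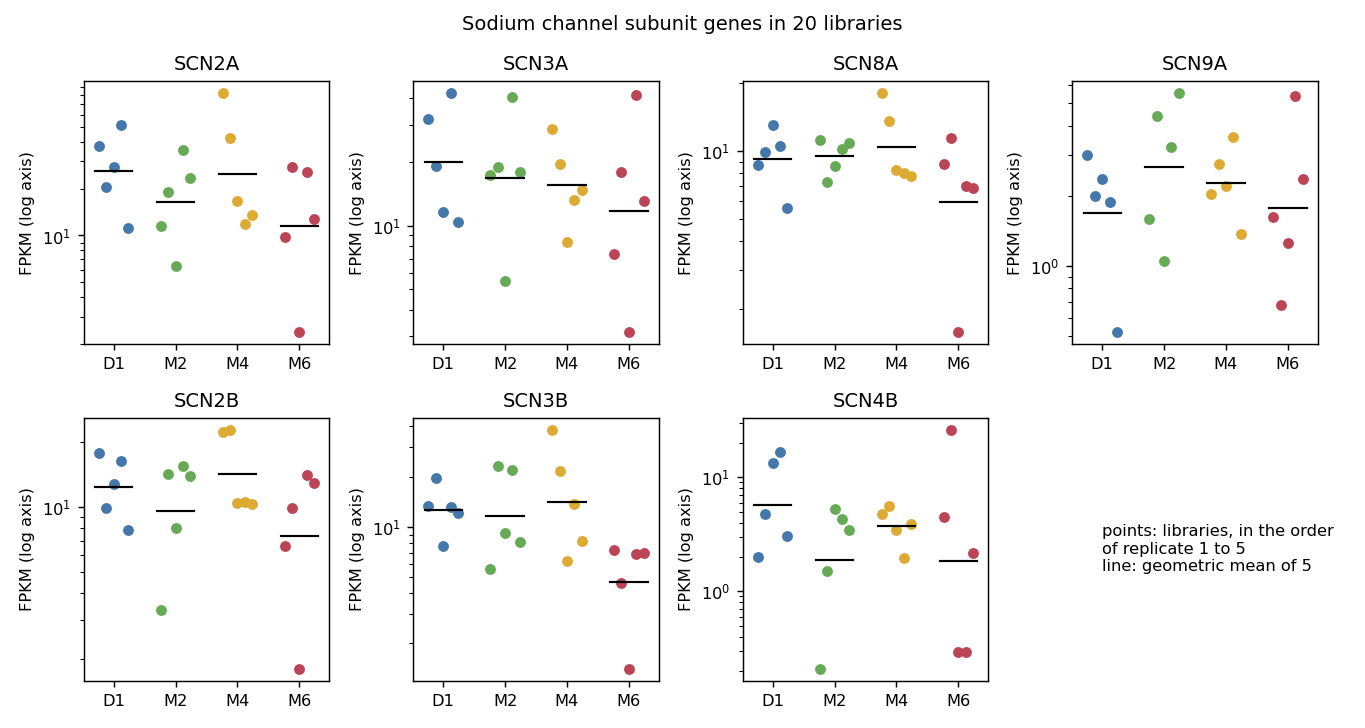
Points give FPKM, on a log axis, of each of the 7 genes in each library, with the 5 libraries of a stage in the order of their replicate numbers and a line at their geometric mean. The stages overlap for every gene except SCN3B, whose M6 libraries, at most 7.28 FPKM, lie below its D1 libraries, at least 7.67 FPKM.

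Across the whole table, 16771 genes were tested by limma on log2(FPKM + 0.1), and a gene was called where its adjusted p was under 0.05 and its level differed by at least 1 on the log2 scale. Of the 7 members, 0 were called in each of the 7 comparisons. The percent of all genes called was 0 in M2 vs. D1, M4 vs. M2, M6 vs. M4 and M6 vs. M2, 0.0537 for M4 vs. D1, 0.00596 for M6 vs. D1 and 0.0596 for the later stages vs. D1. In the F test over the 4 stages 0 members passed, beside 0.00596% of all genes. At an unadjusted p under 0.05, 0 of 7 members passed in M2 vs. D1, beside 15.6% of all genes, 0 in M4 vs. M2 (8.68%), 0 in M4 vs. D1 (8.71%) and 0 in the later stages vs. D1 (11.7%). SCN3B alone passed that limit for M6 vs. M4 (6.87% of all genes), M6 vs. D1 (7.41%), M6 vs. M2 (6.14%) and the F test (10.4%). These counts are from the fit without a covariate. With the mapping rate as one, 3 members passed in M2 vs. D1, 2 in M4 vs. D1 and 4 in M6 vs. M4. In that fit 3 passed in M6 vs. M2, 1 in the later stages vs. D1 and 0 in M4 vs. M2 and M6 vs. D1. The share of all genes at that limit was not counted there. Groups that did not overlap were found for 1 member, SCN3B, in M6 vs. D1, beside 2.84% of all genes. They were found for 0 members in M2 vs. D1 (3.82% of all genes), M4 vs. M2 (1.09%), M6 vs. M4 (0.775%), M4 vs. D1 (1.93%), M6 vs. M2 (0.757%) and the later stages vs. D1 (0.143%). The comparisons share libraries and are not independent of each other.

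**Figure D3:**
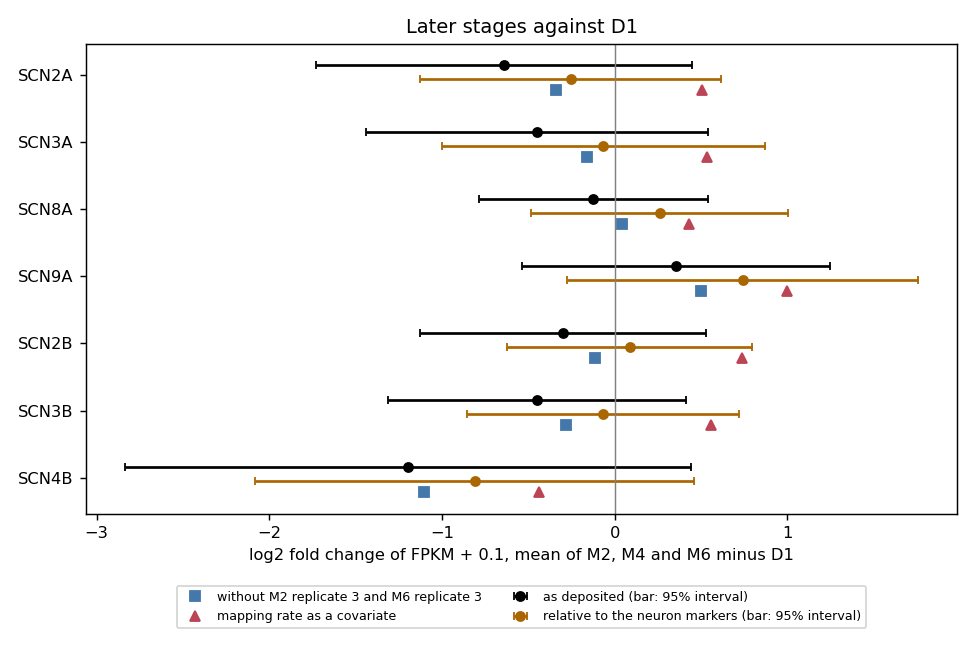
Log2 fold changes of the mean of M2, M4 and M6 from D1 for the 7 genes, as deposited and relative to the neuron markers with 95% intervals, and as values alone without M2 replicate 3 and M6 replicate 3 and with the mapping rate as a covariate. Every interval drawn includes 0, and none is drawn for the values alone. With the covariate 5 genes move from below 0 to above it.

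The sign of several of these differences depended on whether the mapping rate was a term of the fit and on whether levels were taken relative to the neuron markers. With the mapping rate of each library as a covariate, the log2 fold change of the later stages from D1 became 0.50 for SCN2A, 0.53 for SCN3A, 0.43 for SCN8A, 0.74 for SCN2B and 0.56 for SCN3B, and it stayed below 0 for SCN4B, at -0.44. Relative to the neuron markers, it was -0.07 for SCN3A, 0.26 for SCN8A and 0.09 for SCN2B. Median-ratio scaling and quantile normalization changed the sign of 0 members in this comparison. Leaving out 1 library moved it between -0.95 and -0.40 for SCN2A, -0.68 and -0.18 for SCN3A, -0.46 and -0.13 for SCN2B and -0.63 and -0.29 for SCN3B. The lowest of these values came without D1 replicate 5 for SCN2A, SCN3A and SCN2B and without D1 replicate 3 for SCN3B, and the highest without D1 replicate 4 for SCN2A and SCN3A, without M6 replicate 3 for SCN2B and without D1 replicate 2 for SCN3B. Scaling to the neuron markers also moved the median of all genes, from -0.07 to 0.32 in the later stages vs. D1 and from -0.05 to 0.80 in M6 vs. D1. Measured from that shift, each of SCN2A, SCN3A, SCN8A, SCN2B, SCN3B and SCN4B was below the median gene. On this scale 0 members were called in the later stages vs. D1, beside 0.00596% of all genes.

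Over the 20 libraries, 49 correlations were calculated on log2(FPKM + 0.1), 21 between members and 28 between members and the mean of 4 marker lists. Values of 1 library share its scaling, its depth and its tissue piece. Of the 21 pairs of members, 20 had an r above 0, with a median of 0.55, and of 0.32 without M6 replicate 3. SCN2A and SCN3A, neighbours on chromosome 2, had r = 0.85 and rho = 0.83 (permutation adjusted p = 0.000245 and 0.00098), and r = 0.80 without the 2 libraries farthest from the median of SCN2A. For SCN2A and SCN2B, r was 0.86 and rho 0.86 (permutation adjusted p = 0.000245 and 0.00049), and r was 0.73 without the 2 farthest libraries. With the stage means removed, r was 0.87 for the first pair and 0.84 for the second. For SCN3A and SCN8A, r was 0.58 and rho 0.38 (permutation adjusted p = 0.0214 and 0.166), and r was 0.27 without the 2 farthest libraries, so this relation rested on those libraries.

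SCN2B and the neuron markers had r = 0.86 and rho = 0.54 (permutation adjusted p = 0.00108 and 0.0567), and r = 0.46 without the 2 farthest libraries. SCN3A and the mature myelin markers had r = -0.66 and rho = -0.68 (permutation adjusted p = 0.00715 and 0.0186), and r = -0.69 without the 2 farthest libraries. SCN2A and the mature myelin markers had r = -0.65 and rho = -0.54 (permutation adjusted p = 0.00797 and 0.0567), and r = -0.52 without them. The summed FPKM of the 8 myelin markers, all above 0 in every library, ran from 291 to 4148 at D1, from 732 to 1812 at M2, then from 149 to 2534 for M4 and from 234 to 3722 at M6. Whether the amount of white matter in each piece bears on the levels of SCN3A was not tested. For the other members, r with the myelin markers ran from -0.48 (SCN2B) to -0.01 (SCN4B), and r with the neuron markers from 0.33 (SCN9A) to 0.75 (SCN3B). With the cortex markers, r ran from 0.002 (SCN4B) to 0.57 (SCN2A), and the latter was 0.49 without the 2 farthest libraries. The striatum markers were high in 3 libraries and low in 17, so no correlation with them is given.

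**Figure D4:**
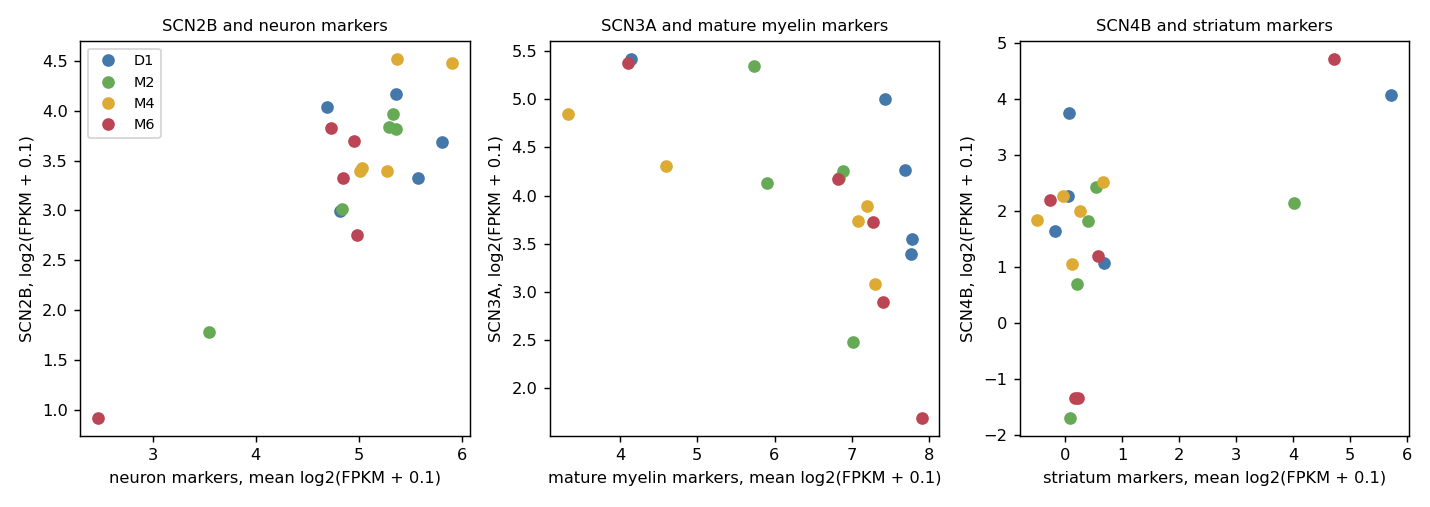
Each point is a library, colored by stage, with the mean log2(FPKM + 0.1) of a marker list on the x axis and log2(FPKM + 0.1) of 1 gene on the y axis. SCN2B with the neuron markers (r = 0.86) has 2 libraries far to the left, SCN3A is lower where the myelin markers are higher (r = -0.66), and the striatum markers are high in 3 libraries.

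The genes whose pattern over the 20 libraries was most like that of SCN8A, among 13670 genes with a mean of at least 1 FPKM, were MYH10 (r = 0.93), KIF5A, a kinesin motor of neurons (r = 0.91), and SPTB, a spectrin (r = 0.91). Without M6 replicate 3 these r values were 0.87, 0.77 and 0.68. For SCN3A they were LOC102170676 (r = 0.94), PCDH20, a protocadherin (r = 0.93), and CADM1, a cell adhesion molecule (r = 0.93), all above 0.91 without M6 replicate 3. For SCN4B they were PCP4 (r = 0.81), ATP2A2, a calcium pump (r = 0.80), and SLC25A5, a mitochondrial ADP/ATP carrier (r = 0.79).

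Of the other sodium channel genes reported here, SCN7A, NALCN and SCN11A were tested and 0 of these 3 were called in any comparison. NALCN, the sodium leak channel, was at 11.6 ± 3.95 FPKM at D1 and 8.03 ± 5.27 FPKM at M6 (SD, n = 5 each). SCN7A, which encodes a sodium-sensing channel, was at 2.19 ± 0.87 FPKM at D1 and 8.15 ± 5.67 FPKM at M6, a log2 fold change of 1.71 (limma adjusted p = 0.692). SCN11A was at a mean of 0.766 FPKM over the 20 libraries. SCN4A and SCN10A, the skeletal muscle and a sensory neuron channel gene, did not pass the filter and reached at most 0.035 and 0.081 FPKM.

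The other lists give the setting of these genes. In the later stages vs. D1, 0 genes of any list were called, and the median log2 fold change of the members was -0.45 beside -0.07 over all genes tested. It was -0.22 for 7 intracellular partners of the channels, -0.04 for 15 genes of the axon initial segment and node, 0.08 for 7 genes of fast-firing neurons, -0.46 for 9 neuron markers and -0.47 for the 7 immature neuron genes measured. It was -0.68 for the myelin, -0.34 for the oligodendrocyte progenitor, -0.03 for the astrocyte, 0.14 for the microglia and -0.10 for the endothelial markers. It was -0.12 for the 9 hypothalamus markers tested, -0.49 for the striatum and 0.31 for the 4 cortex markers tested. In M6 vs. D1 the median was -0.75 for the members and -1.10 for the neuron markers, and without M6 replicate 3 these were -0.28 and -0.44. In the later stages vs. D1 the median of the members ran from -0.62, without D1 replicate 3, to -0.20, without D1 replicate 4, leaving out 1 library. Among single genes in the later stages vs. D1, CNTN1, a contactin of the node region, had a log2 fold change of -0.50 (limma adjusted p = 0.416). It was 0.69 for FGF14, an intracellular partner (limma adjusted p = 0.526). NEFM, a neurofilament, had -1.09 (limma adjusted p = 0.493), and SOX4, a transcription factor of young neurons, -1.02 (limma adjusted p = 0.361). Other genes of these lists went the other way. Above 0 were 2 of the 9 neuron markers, 2 of the 7 immature neuron genes and 7 of the 15 initial segment and node genes. Of the 7 partners, 3 were above 0.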

How the data were processed

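After trimming by fastp, the authors mapped reads to the goat assembly ARS1.2 using HISAT2 (2.0.5), built transcripts with StringTie (1.3.3b) and deposited FPKM per gene. These deposited FPKM values are used here and no counts were recovered. Members were matched by symbol through NCBI Gene IDs. The members, lists and tests were chosen with earlier results of these data known. Genes reaching 0.1 FPKM in 5 or more of 20 libraries (16771 of 21071) were fitted with limma 3.58.1 in R 4.3.3 on log2(FPKM + 0.1), with 4 stages as groups and a variance trend. P values were adjusted by Benjamini-Hochberg over all genes. Fold changes on this scale understate changes of low genes. Correlations used 100000 permutations (numpy 2.4.6). Named genes were the members in every comparison, the other sodium channel genes, some of which are not reported here, up to 4 genes per list with the smallest p in the later stages vs. D1, of which the 4 printed were picked after their values were seen, and the 3 genes most like SCN3A, SCN8A and SCN4B. The mapping rate came from the alignment summary of the study. The ratio of SCN3A to SCN1A was not calculated, and the planned sum of alpha subunits holds 4 genes. The comparisons were refitted under 34 other settings, or 33 for the later stages vs. D1. No sequence is shown. The limma p values set a stage difference against the spread between libraries within stages, pooled over the 4 stages and moderated across genes. That spread holds goat, tissue piece and library preparation together. The permutations shuffled all 20 libraries across the stages.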

Additional observations from a re-analysis of the deposited data

Results flagged for a closer look

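In 36 groups of 5 libraries (the 7 genes and 2 ratios at 4 stages), 3 values, from 2 libraries, lay far from the other 4 of their group by Dixon's gap at the 95% level, and chance gives about 1 in 20 groups. Both M6 values come from the same library and are not independent. SCN8A in M6 replicate 3 was 1.58 FPKM, with a gap of 0.74 of the range of M6. SCN3B in M6 replicate 3 was 1.41 FPKM, with a gap of 0.72 of the range. SCN9A in D1 replicate 5 was 0.519 FPKM, with a gap of 0.72 of the range of D1. M6 replicate 3 was the lowest library for 5 of the 7 genes and had the lowest neuron marker mean; the part of this in the gene levels was not tested.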

How the results depend on the processing

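The comparisons were refitted under 34 other settings, or 33 for the later stages vs. D1, which already uses the libraries of all stages. Of these, 2 were added after seeing the data, those leaving out M2 replicate 3 with M6 replicate 3 and leaving out the 4 libraries high in striatum or cortex markers. Under each setting 0 members were called, and the lowest limma adjusted p of a member was 0.175 (SCN3B in M6 vs. D1 with library quality weights). Beside this, quantile normalization called 0 of all 16771 genes in M2 vs. D1 and 3 in the later stages vs. D1. Library quality weights called 148 and 223. The count of 0 members is near these shares of all genes. Some settings cannot change a log2 fold change, among them the filters on low values, the fit without a variance trend and the replicate block. Nor can leaving out a library of a stage that is not compared. Keeping a sign under such settings is therefore no evidence. Of 49 log2 fold changes of members, 15 kept their sign under every setting, among them SCN3B in M6 vs. D1, M6 vs. M4 and M6 vs. M2 and SCN4B in the later stages vs. D1, and 34 changed it at least once. None of these 34 was larger than 0.85 in absolute value as reported, and the cause was not tested. The ratios and shares of alpha subunits moved by less than 1 SD under their alternatives. The ratio of SCN3A to SCN1A and its alternatives were not run.

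With the mapping rate as a covariate, the values with a changed sign in M2 vs. D1 were 0.76 for SCN2A, 0.99 for SCN3A, 0.94 for SCN2B and 1.15 for SCN3B. In M4 vs. M2 they were -0.075 for SCN8A and -0.10 for SCN3B, in M4 vs. D1 0.92 for SCN2A, 0.51 for SCN3A and 0.038 for SCN4B, in M6 vs. D1 0.10 for SCN3A and 0.17 for SCN2B, and in M6 vs. M2 -0.29 for SCN4B. In the later stages vs. D1 they were 0.50 for SCN2A, 0.53 for SCN3A, 0.43 for SCN8A, 0.74 for SCN2B and 0.56 for SCN3B. Relative to the neuron markers they were in M2 vs. D1 0.13 for SCN3A, 0.013 for SCN2B and 0.26 for SCN3B, in M4 vs. M2 -0.31 for SCN8A and -0.16 for SCN3B, and in M6 vs. M4 0.52 for SCN3A, 0.13 for SCN8A, 0.60 for SCN9A and 0.068 for SCN4B. In M6 vs. D1 they were 0.10 for SCN3A, 0.25 for SCN8A and 0.12 for SCN2B, in M6 vs. M2 0.10 for SCN2B, and in the later stages vs. D1 0.26 for SCN8A and 0.086 for SCN2B.

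With library quality weights they were 0.10 for SCN3A and 0.054 for SCN2B in M2 vs. D1, -0.23 for SCN2A, -0.10 for SCN8A and -0.022 for SCN2B in M4 vs. M2, 0.079 for SCN4B in M6 vs. M4, -0.027 for SCN8A in M4 vs. D1 and -0.16 for SCN9A in M6 vs. D1. Median-ratio scaling gave 0.032 for SCN3B in M2 vs. D1 and -0.070 for SCN4B in M6 vs. M2, and quantile normalization gave 0.050 for SCN9A in M4 vs. M2 and 0.0045 for SCN2A in M4 vs. D1. Without M2 replicate 3 and M6 replicate 3 they were 0.15 for SCN3A in M2 vs. D1, 0.072 for SCN3A in M6 vs. M4, 0.054 for SCN2B in M6 vs. M2 and 0.042 for SCN8A in the later stages vs. D1. Without the 4 libraries high in striatum or cortex markers they were -0.033 for SCN8A in M4 vs. M2, -0.17 for SCN3B in M4 vs. D1 and -0.64 for SCN4B in M6 vs. M2.

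Leaving out 1 library at a time changed the sign of 19 of the 49. In M2 vs. D1 these ran from -0.56 to 0.15 for SCN3A, -0.13 to 0.17 for SCN8A, -0.53 to 0.015 for SCN2B and -0.36 to 0.14 for SCN3B. In M4 vs. M2 they ran from -0.51 to 0.21 for SCN3A, -0.059 to 0.25 for SCN8A, -0.54 to 0.029 for SCN9A and -0.074 to 0.58 for SCN3B. In M4 vs. D1 they ran from -0.51 to 0.19 for SCN2A, -0.013 to 0.31 for SCN8A, -0.00053 to 0.58 for SCN9A and -0.19 to 0.46 for SCN3B. In M6 vs. M4 SCN3A ran from -0.85 to 0.072, and in M6 vs. D1 SCN9A ran from -0.32 to 0.38. In M6 vs. M2 they ran from -0.83 to 0.073 for SCN2A, -0.75 to 0.12 for SCN2B and -0.90 to 0.61 for SCN4B. In the later stages vs. D1 they ran from -0.30 to 0.030 for SCN8A and -0.032 to 0.55 for SCN9A.

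Over all genes, library quality weights called 223 genes in the later stages vs. D1 against 10 as reported, and 98 of the 223 were higher. Replicate numbers do not pair the goats by any label. With the stage means removed, same-numbered libraries of different stages correlated with a median of -0.01 over 30 pairs (7 above 0.1). For libraries with other numbers the median was 0.004 over 120 pairs (37 above 0.1). With the replicate number as a block, 13 genes were called in the later stages vs. D1 and 0 members were called in any comparison. Each number occurs once in every stage, so this block cannot change a log2 fold change or its sign. The depth behind each FPKM is unknown, so the counting error of low values such as those of SCN4B could not be given.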
